A study of Mus musculus with 6 samples.

Results

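Cytosolic ribosomal protein genes encode the protein components of the ribosomes that translate nuclear messages. They were taken by symbol, as Rpl or Rps followed by a number with an optional a, l, x or y, together with Rplp0, Rplp1, Rplp2 and Rpsa. Kinase genes with symbols starting Rps6k and pseudogene symbols with -ps were left out. The rule found 59 genes with 88 probes among the 19057 genes that the array annotation gave as single symbols. Of these genes, 32 belong to the large subunit, 24 to the small subunit and 3 to the stalk of the large subunit. A gene was tested if 3 or more of the 6 arrays gave one of its probes a detection p-value below 0.01, which kept 55 of the 59 members and 9190 genes in all.

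The samples came from mouse embryos of a mixed FVB and 129 background at embryonic day 9.5, the stage of lens placode formation. The knockout samples were Pax6-/- surface ectoderm (3 arrays), and the wild-type samples were lens placode (3 arrays). The tissue was cut from eosin-stained frozen sections by laser, and RNA of 3 embryos per genotype was combined into 1 pool before triplicate amplification. The p-values below therefore compare 2 pools, and the spread between arrays is that of amplification and hybridisation, not of embryos. The comparison asks which transcripts differ in this ectoderm in the absence of Pax6, a DNA-binding regulator of eye development.

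Each cytosolic ribosome contains a large subunit, which forms peptide bonds, and a small subunit, which reads the message. The P stalk is a flexible arm of the large subunit built on Rplp0, to which Rplp1 and Rplp2 bind in pairs, and it recruits the translational GTPases. Messages of ribosomal proteins are among the most abundant in growing cells, and they carry a pyrimidine tract at their first bases, the TOP element, through which mTOR signalling and Larp1 control their translation. The arrays measured steady-state RNA, so translation was not measured.

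Pax6 itself had log2 intensities of 10.01, 10.14 and 10.23 on the Pax6-/- arrays, against 11.30, 11.06 and 10.93 on the wild-type arrays, so the genotypes did not overlap. The labels do not give the deleted part of the gene, so the probe does not check the genotype. Between 16242 and 17114 probes were detected per Pax6-/- array, against 16967 to 17735 per wild-type array. All 8 tested lens placode markers had negative changes, and 7 were called lower at a limma adjusted p under 0.05 over all tested genes. Their summed intensity was 3456 to 3833 on Pax6-/- arrays, against 10673 to 11234 on wild-type arrays, with Foxe3 undetected on every array. Of 10 tested surface ectoderm markers 5 had positive and 5 negative changes, the lowest -0.49. Among them 3 were called higher (Krt14, Trp63 and Tfap2b) and 0 lower. The sum of the 10 was 15610 to 16353 in Pax6-/- and 15305 to 16315 in wild type. All 5 tested erythroid markers had positive changes (0.92 to 1.58), and 3 were called higher. They summed to 4528 to 5003 on Pax6-/- arrays, against 2171 to 2517 on wild-type arrays. Of the 3 erythroid markers on the array that were not tested, Gata1 was undetected on every array and Klf1 and Alas2 were each detected on 1. Of 8 tested mesenchyme markers 6 had positive and 2 negative changes. Among them 3 were called higher (Sox9, Col3a1 and Alx4) and 1 lower (Pdgfra, by 1.23). The 8 markers summed to 7330 to 7845 in Pax6-/- and 5177 to 5724 in wild type. Sox9, the brightest of them at a mean log2 of 12.14 in Pax6-/- and 11.39 in wild type, weighs most in this sum. Foxc1 (-0.03) and Foxc2 (0.10) changed little. All 4 tested neural and optic vesicle markers had positive changes, from 0.003 to 1.83, and 1 was called higher. They summed to 981 to 1237 in Pax6-/- and 647 to 789 in wild type. None of 4 endothelial markers was detected on any array, and 1 of 3 macrophage markers was tested and not called. Xist, the transcript of the inactive X chromosome, was 1.54 higher in the Pax6-/- pool on the log2 scale. The Y-linked Eif2s3y fell by 3.59, with 4.54 to 4.81 on Pax6-/- arrays and 8.15 to 8.41 on wild-type arrays. The Y-linked Kdm5d fell by 1.45, with 4.64 to 5.02 and 6.20 to 6.36 in the same order. The Pax6-/- values of both Y-linked genes were near those of undetected probes, such as the Rpsa probes at 4.57 to 5.13. That background level limits the size of both changes. Sex-linked transcripts thus also differed between the pools, and the sex makeup of the pools cannot be told apart from genotype. The part of these differences in the ribosomal protein values was not tested.

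The sequence around the annotated start of transcription is given for 7 members whose array values are described below. It shows how far the pyrimidine runs near these annotated starts differ. Each window has 41 bases, written 5′ to 3′ on the gene's own strand, with the annotated start as the 21st base. Capitals mark the longest run of pyrimidines. Sequences are from RefSeq on GRCm38.p6.
Rplp0, chr5:115559447-115559487, plus strand: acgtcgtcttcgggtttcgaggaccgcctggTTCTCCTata
Rplp2, chr7:141447631-141447671, plus strand: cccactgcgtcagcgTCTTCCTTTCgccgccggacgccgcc
Rps2, chr17:24720043-24720083, plus strand: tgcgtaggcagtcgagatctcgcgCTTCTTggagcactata
Rps6, chr4:86857347-86857387, minus strand: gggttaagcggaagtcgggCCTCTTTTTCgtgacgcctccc
Rpl7a, chr2:26910787-26910827, plus strand: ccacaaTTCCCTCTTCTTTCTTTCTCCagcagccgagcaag
Rpl28, chr7:4792945-4792985, plus strand: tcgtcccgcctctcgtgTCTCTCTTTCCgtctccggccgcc
Rpl38, chr11:114668560-114668600, plus strand: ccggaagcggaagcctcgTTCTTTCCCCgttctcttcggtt
The run is 10 bases long in Rplp2, Rps6 and Rpl38 and covers the annotated start in all 3. In Rpl7a it is 21 bases long and in Rpl28 11, again across the start. In Rplp0 the longest run has 7 bases and begins 11 bases after the annotated start, and in Rps2 it has 6 bases and begins 4 bases after it. In both genes the letters TATAAA occur on the gene's own strand after the annotated start. Annotated starts were not checked against transcripts, so these windows need not hold the pyrimidine tract of the message.

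Promoter entries were available for 48 of the 59 members, which had 58 annotated starts between them, and 9 members had several. A run of at least 8 pyrimidines lay within 20 bases of the start in 23 of the 58 (39.7%), against 5404 of all 32851 promoter entries (16.45%). A C at the start itself followed by at least 4 further pyrimidines was found at 9 member starts (15.5%), against 2.51% of all entries. Runs of at least 8 purines, the mirror of this count, lay near 3 member starts (5.17%), against 18.04% of all entries. Over the whole 300 bases, on either strand, the ETS motif CCGGAAG was present in 23 member promoters (39.7%) and in 8.86% of all. The Sp1 motif GGGCGG was present in 34 (58.6%) and in 35.7% of all, the YY1 motif AAGATGG in 7 (12.1%) and in 6.34% of all, and the TATA box TATAAA in 5 (8.62%) and in 13.6% of all. Several starts of 1 gene share sequence, and a match says only that these letters occur in the window. Of the 300 bases 250 lie before the annotated start, so a match can lie on either side of it. The Rplp0 promoter held the Sp1 motif, the TATA motif after the annotated start, and no ETS motif. That of Rplp2 held the ETS and Sp1 motifs and no TATA motif.

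As a family, the ribosomal protein genes moved little between the genotypes. Of 55 tested members 0 were called higher and 1, Rplp0, was called lower in Pax6-/- ectoderm at a limma adjusted p under 0.05 over all tested genes. That is 1.82% of the members, beside 3.28% of all tested genes (1.51% higher and 1.76% lower). At an unadjusted p under 0.05 there were 5 higher and 6 lower members, beside 16.9% of all genes. Changes are given as Pax6-/- minus wild type in log2 intensity. The members' median change was -0.03, beside -0.01 for all tested genes, and 21 changes were positive and 34 negative. Their middle 50% ran from -0.18 to 0.09, beside -0.25 to 0.24 for all genes. The 95% interval of the change lay within 1 log2 unit of 0 for 50 of the 55 members and within 0.5 for 36.

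**Figure D1:**
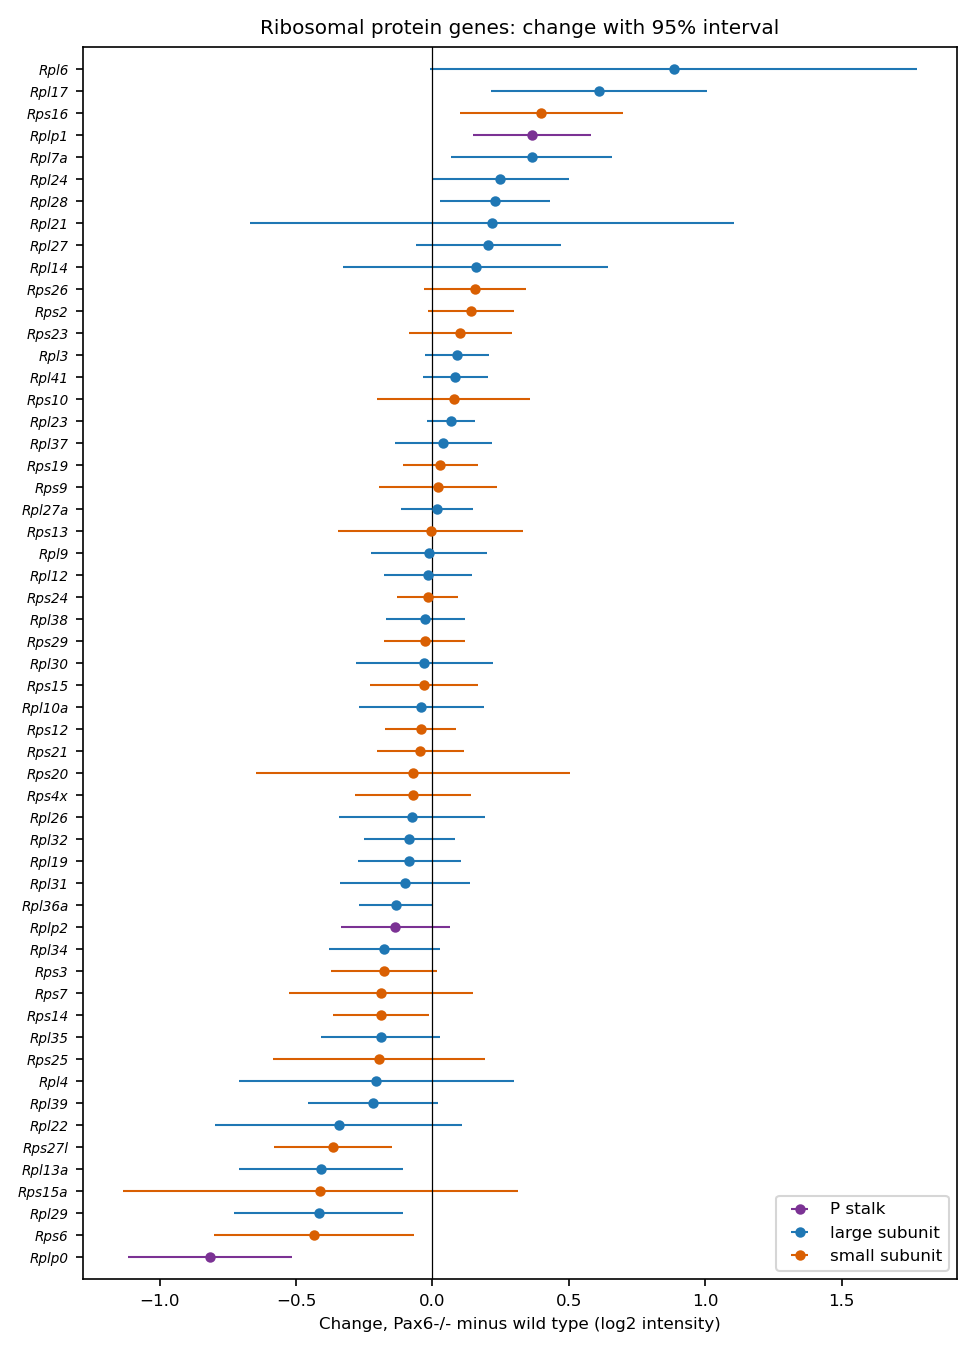
Change of each tested ribosomal protein gene, in log2 intensity on the x axis, with 1 gene per row, ordered by change and coloured by its place in the ribosome. Points are Pax6-/- minus wild type and bars are 95% intervals from limma with 3 arrays per genotype. Most points sit close to 0, with Rplp0 at -0.82 at the low end and the dim Rpl6 at 0.88 with a wide interval at the high end.

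Changes beyond 0.5 were seen in 3 of the 55 members (5.45%), beside 23.1% of all tested genes. The members are bright, and bright genes had smaller errors (median SE 0.12 at a mean log2 intensity of at least 10, beside 0.28 over all genes), so the same counts were also taken above that intensity, a limit chosen after the values were seen. There the 44 members had a median absolute change of 0.0870, beside 0.147 for 1553 other genes of that brightness. Of these members 1 was called (2.27%), beside 5.41% of the other bright genes. Changes beyond 0.5 were seen in 1 of the 44 bright members (2.27%), beside 92 of the other bright genes (5.92%), so the background share itself was much lower at this brightness. On an array-by-array view the Pax6-/- and wild-type arrays did not overlap for 18 of 55 members (32.7%), beside 22.8% of all tested genes. Among the bright genes the shares were 31.8% of the 44 members and 28.1% of the others. Of all 55 tested members, 11 did not overlap on the higher side and 7 on the lower side. Over all 9190 tested genes these counts were 1031 (11.2%) and 1060 (11.5%). Among the 44 bright members they were 8 and 6, beside 199 and 238 of the 1553 other bright genes. The members' share on the higher side was thus above that of all genes, which was not tested. The median over members of each array's deviation from the gene mean was -0.0049 ± 0.015 in Pax6-/- and 0.016 ± 0.020 in wild type (SD, n = 3 each). The member probes together held 1.81% ± 0.07 of the signal of an array in Pax6-/- and 1.87% ± 0.06 in wild type (SD, n = 3 each). The ranges of the genotypes overlapped for both measures. The share was taken from deposited signals without background correction, and it differed by slide. On slide 1 it was 1.760% and 1.775% in Pax6-/- and 1.848% and 1.816% in wild type. On slide 2 it was 1.886% in Pax6-/- and 1.938% in wild type. Within each slide the Pax6-/- shares were thus the lower ones, by little, and this was not tested. In captured tissue, fewer cells of a type and less RNA per cell cannot be told apart.

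**Figure D2:**
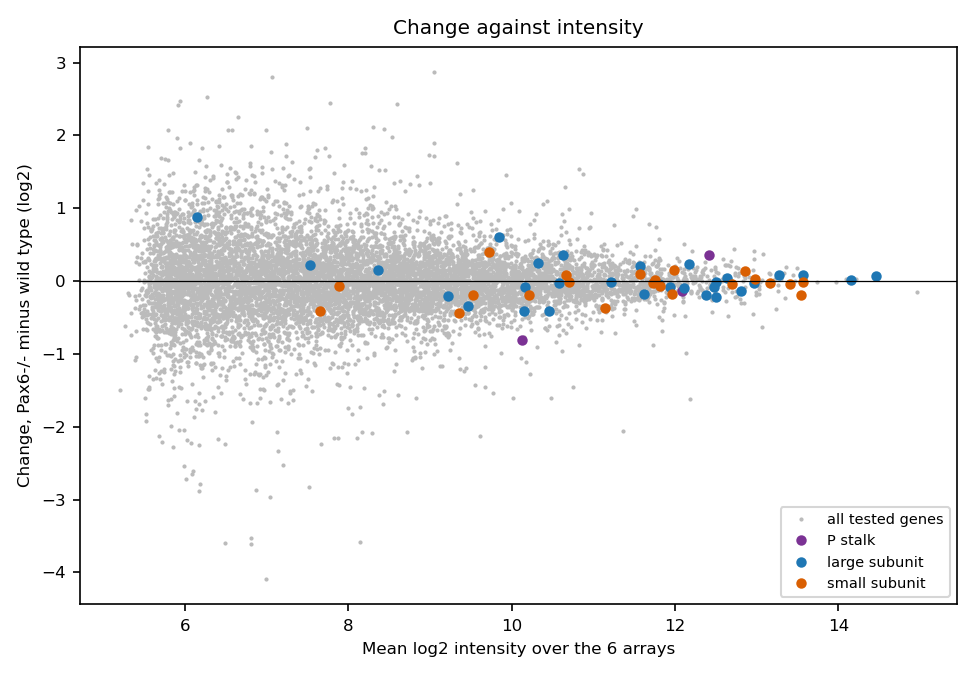
Change (Pax6-/- minus wild type, log2) on the y axis against the mean log2 intensity over the 6 arrays on the x axis, for all 9190 tested genes in grey and the 55 tested members in colour. The members crowd the bright right-hand side near 0, and Rplp0 lies below the other bright members at -0.82.

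**Figure D3:**
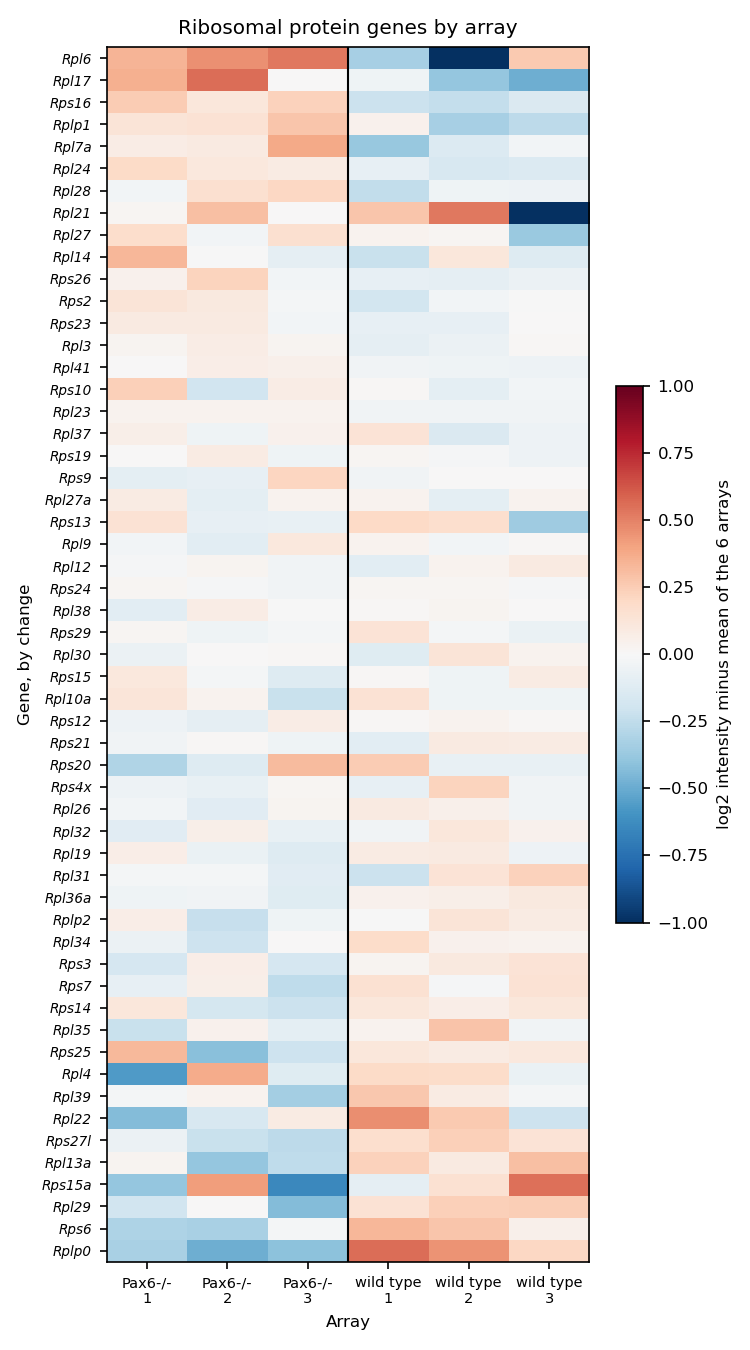
Log2 intensity of each tested member on each array minus its mean over the 6 arrays, with Pax6-/- arrays left of the line and wild-type arrays right of it. Colours end at 1 in either direction, and Rpl6 and Rpl21 each have a low wild-type array near or beyond the end of the scale.

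The stalk genes gave changes on both sides of 0, and 1 of the 3 passed the test. Rplp0, the P0 protein at the base of the stalk, had log2 intensities of 9.80, 9.64 and 9.72 on the Pax6-/- arrays, against 10.69, 10.58 and 10.34 on the wild-type arrays. Every Pax6-/- array was below every wild-type array. Rplp0 averaged 9.72 ± 0.08 in Pax6-/- and 10.53 ± 0.18 in wild type (SD, n = 3 each). It fell by 0.82 on the log2 scale (SE 0.14, 95% interval -1.12 to -0.51, limma adjusted p = 0.00862), or 1.76-fold. The deposited signals of this probe, before any normalisation, were 1023, 857 and 967 in Pax6-/- and 1884, 1677 and 1430 in wild type. A second, dimmer Rplp0 probe read 8.01, 8.03 and 8.33 in Pax6-/- and 8.94, 8.97 and 8.22 in wild type. Its wild-type array 3 lay within the Pax6-/- range, and its change of -0.59 (SE 0.25, limma adjusted p = 0.269 over all kept probes) did not pass. The call of Rplp0 was lost with the mean of its probes (-0.70, limma adjusted p = 0.0588), without an intensity trend (adjusted p = 0.0690) and on slide 1 alone (-0.84, adjusted p = 0.115). It held under 16 of 19 alternatives, among them the slide as a block (adjusted p = 0.0137). Between the arrays of slide 2, which held 1 of each genotype, the change was -0.77, with no test.

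Rplp1 and Rplp2 encode the small acidic proteins that bind P0. Rplp1 had 12.54, 12.56 and 12.69 on the Pax6-/- arrays, against 12.46, 12.09 and 12.16 on the wild-type arrays. Its genotypes did not overlap, in the direction opposite to Rplp0. The change of 0.36 (SE 0.10, limma adjusted p = 0.0793) did not pass, although it did without wild-type array 1 (0.48, adjusted p = 0.0175). Rplp2 had 12.15, 11.85 and 12.04 in Pax6-/- and 12.07, 12.21 and 12.16 in wild type. The Rplp2 genotypes overlapped, and its change was -0.14 (SE 0.09, 95% interval -0.34 to 0.06, adjusted p = 0.495). Whether the changes of the stalk genes differ from each other was not tested.

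**Figure D4:**
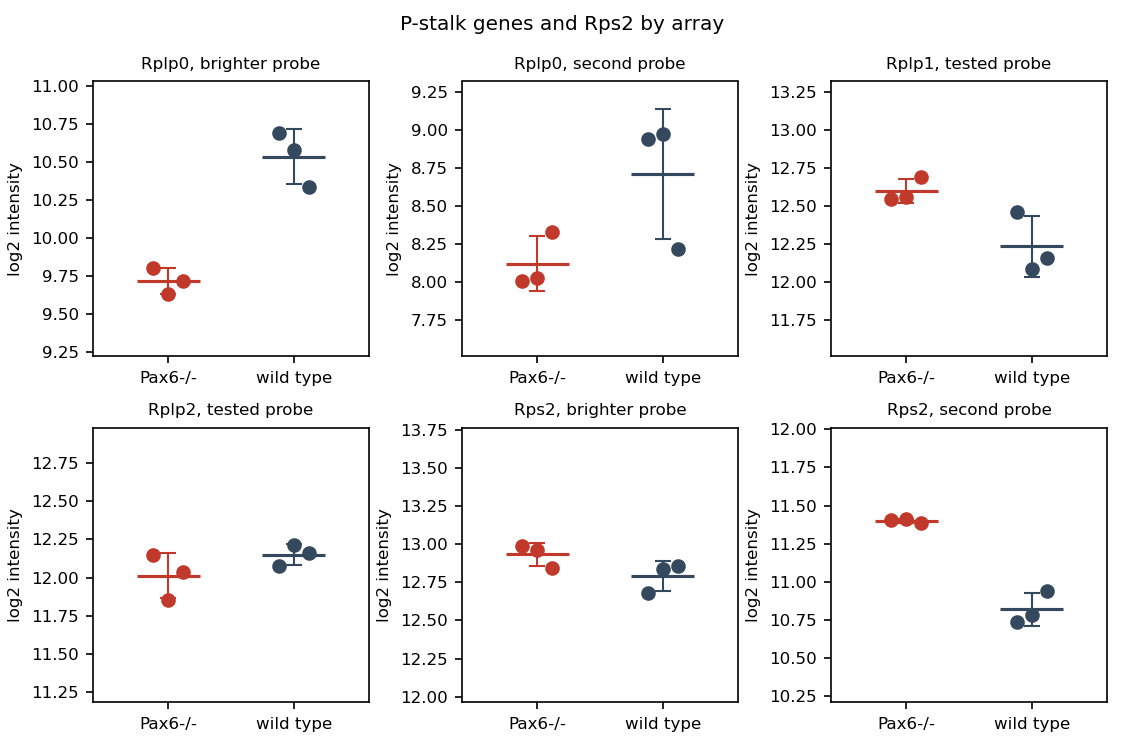
Log2 intensity of the probes of the P-stalk genes and of Rps2 on the Pax6-/- arrays (left) and wild-type arrays (right), with points for arrays, a line for the mean and bars for 1 SD (n = 3). Both Rplp0 probes have lower means in Pax6-/-, Rplp1 has a higher one, and the second Rps2 probe is higher in every Pax6-/- array while its brighter probe overlaps.

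Rps2, a small-subunit protein near the channel through which the message enters, gave different answers with its probes. The brighter probe, by which the gene was tested, read 12.99, 12.96 and 12.85 in Pax6-/- and 12.68, 12.84 and 12.86 in wild type, so the genotypes overlapped. Its change was 0.14 (SE 0.07, limma adjusted p = 0.353). The second probe read 11.40, 11.41 and 11.39 in Pax6-/- and 10.74, 10.78 and 10.94 in wild type. That probe was 0.58 higher in Pax6-/- (SE 0.10, limma adjusted p = 0.00923 over all kept probes), or 1.496-fold, and was singled out after its values were seen. Beside it, 2.73% of all kept probes were called, 1.32% higher and 1.4% lower. With the mean of both probes Rps2 was called higher (0.36, adjusted p = 0.0316). RefSeq lists 12 pseudogene entries for Rps2, and where each probe lies in the transcript was not used here.

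No large-subunit gene outside the stalk passed the test, and their changes ran from -0.42 to 0.88 with a median of -0.02 over 30 genes (13 positive, 17 negative). Rpl6 had the highest value of the family but is dim, with 6.48, 6.60 and 6.67 in Pax6-/- and 5.81, 4.89 and 6.40 in wild type. It was detected on 2 of the 3 wild-type arrays, and its change of 0.88 has an SE of 0.41 (limma adjusted p = 0.303). Rpl17, which lines the tunnel through which the new peptide leaves, had 10.20, 10.40 and 9.85 in Pax6-/- and 9.80, 9.46 and 9.36 in wild type. All Pax6-/- arrays were above all wild-type arrays, by little at the nearest, and the change was 0.61 (SE 0.18, adjusted p = 0.104). Rpl7a had 10.70, 10.72 and 11.01 in Pax6-/- and 10.25, 10.49 and 10.60 in wild type, a change of 0.36 (SE 0.13, adjusted p = 0.192). Rpl28 stood at 0.23 (SE 0.09, adjusted p = 0.227), again with no overlap. Rpl21 stood at 0.22 (SE 0.40), where 1 wild-type array at 6.40 lay well below the others at 7.81 and 8.06. Without that array its change was -0.29.

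Among the lowest large-subunit genes, Rpl29, a protein with heparin-binding activity, had 9.95, 10.15 and 9.72 in Pax6-/- and 10.29, 10.38 and 10.39 in wild type. The genotypes did not overlap, and the change was -0.42 (SE 0.14, limma adjusted p = 0.152). Rpl13a, which in human myeloid cells also leaves the ribosome to repress translation of inflammatory messages, had 10.49, 10.07 and 10.20 in Pax6-/- and 10.68, 10.54 and 10.75 in wild type. Its arrays did not overlap either, and the change was -0.41 (SE 0.14, adjusted p = 0.147). Rpl22 stood at -0.34 (SE 0.21, adjusted p = 0.438), with overlapping genotypes. Its paralog Rpl22l1, which the symbol rule leaves out, had 9.47, 9.60 and 9.61 in Pax6-/- and 9.98, 10.18 and 9.89 in wild type. That paralog stood at -0.46 (SE 0.14, adjusted p = 0.126), so its value and that of Rpl22 were both below 0 and neither passed. Rpl7l1, the paralog of Rpl7, stood at -0.12 (SE 0.28).

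No small-subunit gene passed by the probe used for the gene, and the 22 tested ranged from -0.43 to 0.40 with a median of -0.04 (7 positive, 15 negative). Rps6, the substrate of the S6 kinases downstream of mTOR, had 9.05, 9.03 and 9.34 in Pax6-/- and 9.69, 9.63 and 9.41 in wild type. The lowest wild-type array was only just above the highest Pax6-/- array, and the change was -0.43 (SE 0.17, limma adjusted p = 0.209). Rps15a stood at -0.41 with an SE of 0.33 and overlapping arrays. Rps16, whose tail reaches the peptidyl site of the ribosome, had 9.98, 9.84 and 9.96 in Pax6-/- and 9.51, 9.48 and 9.58 in wild type. Its arrays were separate, and the change was 0.40 (SE 0.14, adjusted p = 0.155).

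Of the members whose symbols end in l, which mark paralogs of other ribosomal protein genes, only Rps27l was tested. Rps27l, a paralog of Rps27 that p53 induces, had 11.09, 10.92 and 10.89 in Pax6-/- and 11.31, 11.39 and 11.29 in wild type. All its Pax6-/- arrays were below the wild-type arrays, with a change of -0.36 (SE 0.10, limma adjusted p = 0.0796). It passed with arrays scaled to the median of all probes (-0.51, adjusted p = 0.0383). Rpl3l, known as the striated-muscle form of Rpl3, and Rpl39l, known as the testis form of Rpl39, were not detected on any array. Rps4l, a paralog of Rps4x, was detected on 1 array, which was a Pax6-/- one. Both probes of Rpsa, the laminin receptor precursor of the small subunit, were undetected on all 6 arrays, with deposited signals of 116 to 156 in Pax6-/- and 132 to 161 in wild type. A lack of signal from these probes does not show that the Rpsa transcript was absent. Rpl3l, Rpl39l, Rps4l and Rpsa are the 4 members that were not tested.

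The pools differed in sex-linked transcripts, and 3 tested members are X-linked. Rps4x stood at -0.07 (SE 0.10), Rpl36a at -0.13 (SE 0.06) and Rpl39 at -0.22 (SE 0.11), with limma adjusted p of 0.771, 0.306 and 0.337. None of the 3 passed.

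Several ribosomal protein genes are known from mouse mutants with tissue-restricted defects. Rpl24, altered in Belly spot and tail mice, whose eyes are also affected, had 10.51, 10.43 and 10.40 in Pax6-/- and 10.24, 10.16 and 10.19 in wild type. All its Pax6-/- arrays were above the wild-type arrays, and the change of 0.25 (SE 0.11, limma adjusted p = 0.303) did not pass. Rpl38, altered in Tail-short mice, stood at -0.03 (SE 0.07), with a 95% interval of -0.17 to 0.12. A second, dim Rpl38 probe stood at 0.95 (SE 0.33, adjusted p = 0.169 over all kept probes), and with the mean of the probes the sign of Rpl38 turned (0.46). That dim probe was detected on 4 arrays, and wild-type array 1 was the only wild-type one among them. Rps19 and Rps20, altered in dark-skin mice, stood at 0.03 (SE 0.06) and -0.07 (SE 0.26). Rps7 stood at -0.19 (SE 0.15). None of these 5 genes passed.

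For 16 members more than 1 probe was kept, and 14 of the 24 further probes had the sign of the probe used for the gene. Among all member probes, 1 was called higher (the second Rps2 probe) and 1 lower (the brighter Rplp0 probe). Rpl30, chosen after its values were seen, stood at -0.03 with the probe used and at -0.79 with a dimmer one (SE 0.23, limma adjusted p = 0.105 over all kept probes). Probe signals can hold RNA from related copies, as 46 of the 59 members have at least 1 pseudogene entry in RefSeq. The counts reach 24 for Rpl31 and 23 for Rps12.

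Quantile normalisation leaves little room for the brightest probes. Rpl23, the brightest member, has identical normalised values within each genotype, 14.49 on the Pax6-/- arrays and 14.42 on the wild-type arrays. It is one of the 11 members whose arrays did not overlap on the higher side. Its deposited signals were 22012, 22328 and 25088 in Pax6-/- and 22837, 22126 and 21449 in wild type, and these overlap. The other kept Rpl23 probes stood at -0.11, -0.12 and -0.01. Rpl23 was named after its values were seen. Rpl27a and Rps24 have 3 distinct normalised values over the 6 arrays.

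On slide 1, which held 2 arrays of each genotype, the members' median change was -0.02, and between the 2 arrays of slide 2 it was also -0.02. The sign differed between the slides for 19 of 55 members.

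Genes that make, regulate or work with ribosomes were compared in the same fit. The counts at an unadjusted limma p under 0.05 given for these lists stand beside 16.9% of all 9190 tested genes. That background was 785 genes higher and 771 lower. Whether any list differed from it was not tested. Of 73 tested mitochondrial ribosomal protein genes, whose products build the separate ribosome of mitochondria, limma called 0, with 0 higher and 5 lower at an unadjusted p under 0.05. Their median change was -0.03, and the largest changes were those of Mrpl55 (-0.76, SE 0.35, adjusted p = 0.304) and Mrps25 (-0.69, SE 0.41, adjusted p = 0.441). Of 39 ribosome biogenesis genes 0 were called, with 5 higher and 0 lower at an unadjusted p under 0.05 and a median of 0.02. Bysl, a factor of small-subunit assembly, stood at 0.94 (SE 0.44, adjusted p = 0.308), and Nop2, a nucleolar methyltransferase of ribosomal RNA, at 0.76 (SE 0.34, adjusted p = 0.292). Of 33 translation factors and other TOP-message genes 0 were called, with 1 higher and 2 lower at an unadjusted p under 0.05. That list had 24 positive and 9 negative changes and a median of 0.09, with the initiation factor 3 subunits Eif3b at 0.51 (SE 0.32) and Eif3e at 0.48 (SE 0.47) highest. Bysl and Eif3e were not detected on all 6 arrays, and Mrpl55 was detected on 2 Pax6-/- arrays of 3.

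Growth control genes gave 0 calls among 15 tested (2 higher and 0 lower at an unadjusted limma p under 0.05, median 0.07). Eif4ebp1, the mTOR-regulated repressor of cap-dependent translation, had 8.81, 8.65 and 8.28 in Pax6-/- and 7.999, 7.84 and 7.75 in wild type. Its arrays did not overlap, and its change of 0.72 (SE 0.23, adjusted p = 0.133) did not pass. The S6 kinase gene Rps6kb2 stood at -0.60 (SE 0.48, adjusted p = 0.584), with detection on 1 Pax6-/- array of 3. Of 9 tested p53 pathway genes, some of which respond to faults in ribosome production, 0 were called, with 2 higher and 1 lower at an unadjusted p under 0.05. Phlda3 stood at 1.09 (SE 0.42, adjusted p = 0.216), with detection on 1 wild-type array of 3, and the cell-cycle inhibitor Cdkn1a stood at 0.86 (SE 0.37, adjusted p = 0.261).

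**Figure D5:**
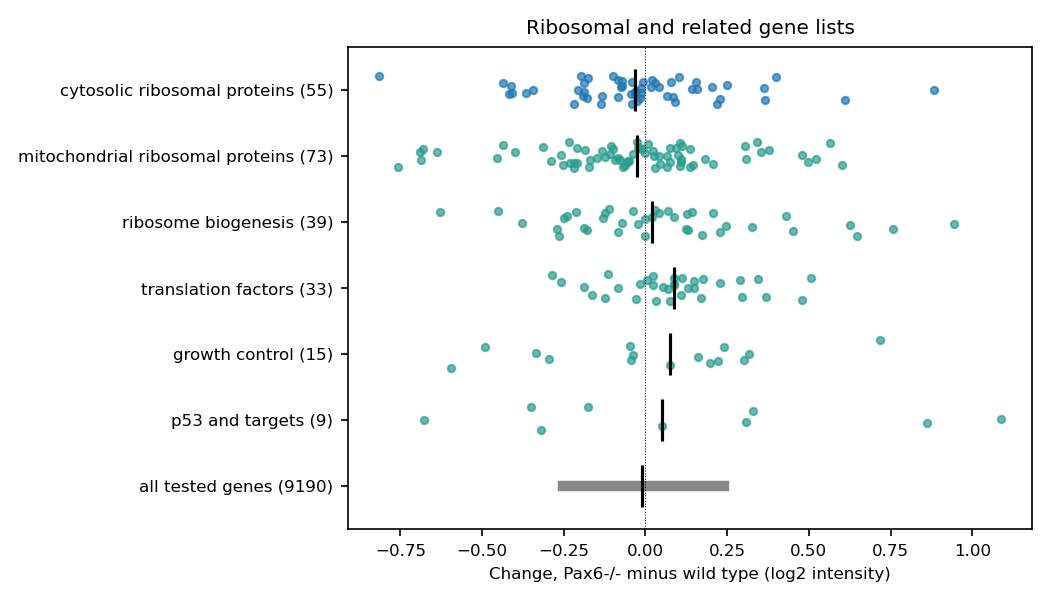
Change (Pax6-/- minus wild type, log2 intensity) of each tested gene of the cytosolic ribosomal protein genes and of 5 related lists, 1 list per row, with the number tested in brackets and a black tick at the median. The bottom row shows all tested genes by their middle 50% (grey bar, -0.25 to 0.24) and median. The medians of the lists lie between -0.03 and 0.09.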

How the data were processed

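RNA from laser-captured ectoderm was measured on 6 Illumina bead arrays, 3 per genotype. The deposited intensity of a probe is the average over its beads, per the file headers, linear and without normalisation across arrays. A detection p-value per probe and array and bead counts (median 44 or 45 per probe) were deposited with them, per the file headers. A second table of normalised intensity values made by the authors served as an alternative. GenomeStudio is named in the submitters' processing notes, and its version is not given in the sources used here.

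Of 45281 probes 34885 had 1 gene symbol in the platform annotation. In limma 3.58.1 (R 4.3.3), background was modelled from the detection p-values (normexp, offset 16), arrays were quantile-normalised and values log2-transformed. Of the kept probes of a gene the one with the highest mean was used. Genotypes were compared by a limma linear model (moderated with an intensity trend, 2-sided, Benjamini-Hochberg over 9190 genes). The number of arrays limits the precision.

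Members, lists and markers were chosen with earlier results of these data known. Named were the called members, the 8 highest and 8 lowest changes, stalk genes, X-linked members, paralogs, members with mouse mutants, members whose probes differ, and of each related list the 2 largest changes where none was called. A further 24 RefSeq symbols matching the rule, such as Rpl5, Rpl11 and Rpl10, were not analysed here.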

Additional observations from a re-analysis of the deposited data

How the results depend on the processing

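Counts are given as Pax6-/- higher or lower. For all genes the 139 higher became 89 with no detection filter, 72 without the trend, 28 from slide 1 alone and 59 to 107 with 1 array left out. The 162 lower became 107, 104, 40 and 84 to 119 under the same settings and 264 with arrays scaled to the median of all probes. That scaling moved the median of all genes to -0.13, so that 26.1% of calls were higher beside 46.2%, and the members' median to -0.18, which is -0.05 from that of all genes. The members' median was -0.072 with the mean of probes, -0.064 with scaling on probes detected on all arrays, and -0.03 with any array left out. Among members, higher calls were 1 with the mean of probes (Rps2) and 0 to 1 with 1 array left out (Rplp1 without wild-type array 1). Lower calls were 0 with the mean of probes, without a trend and on slide 1, 3 with scaling on all probes (Rplp0, Rpl29, Rps27l) and 1 to 2 with 1 array left out (Rps14 as well without Pax6-/- array 1, -0.29, limma adjusted p = 0.0398). Among member probes, higher calls were 0 with scaling on all probes, without a trend and on slide 1 alone, and 1 to 2 with 1 array left out. Lower ones were 2, 0 and 0 in the same order, and 1 to 2. Related lists gave 1 higher call with the mean of probes (Pabpc1), 3 lower with scaling on all probes (Eif3d, Mrpl18, Rpl22l1) and 0 to 1 lower with 1 array left out (Eif3d without wild-type array 1).

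The replicate numbers do not pair the arrays (correlations of same-numbered deviations -0.026, -0.024 and -0.0019). As a block, the replicate number gave 81 higher and 101 lower genes, and Rplp0 remained the 1 member called (adjusted p = 0.0242).

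Of 697 values of 37 named genes over 19 settings, 673 kept their direction and side of the threshold. Signs turned for Rpl21 without wild-type array 3 (-0.29, and up to 0.54 with another array left out), Rpl38 with the mean of probes (0.46), on slide 1 (0.029) and with 1 array left out (-0.071 to 0.021), and Rps2 with scaling on all probes (-0.0028). They also turned for Rps19 with scaling on all probes (-0.10) and with 1 array left out (-0.0052 to 0.060), Rps20 on slide 1 (0.0070) and with 1 array left out (-0.25 to 0.061), Rps4x on slide 1 (0.031) and with 1 array left out (-0.13 to 0.023), and Rpl7l1 on slide 1 (0.031) and with 1 array left out (-0.26 to 0.11). Besides Rplp0, Pax6 missed the threshold on slide 1 (-0.93, limma adjusted p = 0.0553). The cause of these changes was not tested. Normalisation learned without the member probes, added after the data were seen, changed no call among members. Dim members such as Rpl6, near the detection limit, are measured least well.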
